A study of Rattus norvegicus with 10 samples.

Results

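Late transcripts of the response of lens cells to FGF2 were set against early ones: the 4 arrays taken 12 and 24 hr after the dose of FGF2 was raised against the 4 arrays taken at 2 and 4 hr. These are 8 of the 10 arrays of the time course, chosen by the hours in their labels alone, and the arrays from before the higher dose were not used. Lens explants are sheets of lens epithelial cells that stay attached to the lens capsule and are kept in a dish. They came from 3-day-old rat pups, 6 explants to an assay, and all of them spent the first night at 5 ng/ml FGF2 before the dose was raised to 100 ng/ml. Early explants had 2 hr or 4 hr of the higher dose and late explants 12 hr or 24 hr, with 2 arrays at each time from different cultures. No genotype or strain is given in the labels. Pieces from several pups can share an assay. Without explants held at 5 ng/ml for matching times, the effect of dose and that of time in the dish cannot be told apart. The array names given with the study also place the early and the late arrays in separate runs, so that phase and array run cannot be told apart in any comparison across the phases.

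Fibroblast growth factors act through receptor tyrosine kinases and the MAP kinase cascade. In the lens a low dose keeps epithelial cells alive and dividing, while a high dose drives them to leave the cell cycle, elongate and become fiber cells filled with crystallins. Receptor activation first switches on immediate early genes, which need no new protein, and their products and the feedback inhibitors of the cascade shape the transcripts of the following hours.

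Intensities were taken to log2 and fitted with limma, with 1 mean for each of the 4 times, and a log2 difference in the text is the mean of 12 and 24 hr minus the mean of 2 and 4 hr, with its standard error (SE). The SE rests on the spread of replicate arrays within each time, moderated by limma. It leaves out the spread between the 2 times of a phase. A probe set was called at an adjusted p under 0.05 (Benjamini-Hochberg over all 31042 probe sets). Where the values of single arrays are given, they are RMA intensities in the order 2 hr replicates 1 and 2, 4 hr replicates 1 and 2, then 12 hr replicates 1 and 2, and 24 hr replicates 1 and 2. Since a probe set's brightness depends on its probes, intensities are compared only within a gene. On the early arrays the 5S rRNA control read 183 to 209, against 112 to 128 on the late arrays, and the log2 ratio of the 5' to the 3' GAPDH control was −0.30 to −0.17 against −0.14 to −0.06. Neither control overlapped between the phases. The same ratio of the Actb control did overlap, at −2.13 to −1.37 early and −1.88 to −1.30 late. Beyond a fit with this Actb ratio as covariate, given at the end, the part of RNA quality in the differences below was not tested.

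Of the 31042 probe sets, 10983 (35.4%) differed between the phases, 5519 (17.8%) higher late and 5464 (17.6%) lower late. At 2-fold or more, 679 (2.19%) were higher and 907 (2.92%) lower. At 16-fold or more 7 were higher and 5 lower. The median of all differences was 0.03, and that of the called ones was 0.47 for those higher and −0.55 for those lower late. In 5041 probe sets (16.2%) every late array read above every early array, and in 4656 (15.0%) every late array read below. With the brightest probe set standing for each of 14217 genes, 40.5% of the genes were called, 21.2% higher and 19.3% lower late, and the counts in gene lists below are to be read against these shares. Where leaving out 1 array moved the count of a list by more than 1.5 times, the count left is given with the array. Genes with at least 2 probe sets numbered 4525, of which 136 had calls in both directions.

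Most of the spread among the 8 arrays lay between the phases. The phase accounted for 62.3% of the variance summed over the probe sets, the step from 2 to 4 hr for 10.9%, the step from 12 to 24 hr for 10.8%, and the replicate arrays for 16%. Within the early phase 694 probe sets (2.24%) differed between 2 and 4 hr, 419 of them higher at 4 hr. Within the late phase 794 (2.56%) differed between 12 and 24 hr, 407 of them higher at 24 hr. Across the gap between the phases, from 4 to 12 hr, 5919 (19.1%) differed. The steps lie within a phase and so within an array run, but their counts hung on single arrays. From 2 to 4 hr they were 159 without 2 hr replicate 2, 379 without 4 hr replicate 1, 237 without either 12 hr array and 443 without either 24 hr array. From 12 to 24 hr they were 54 and 16 without 12 hr replicates 1 and 2, and 134 and 94 without 24 hr replicates 1 and 2. From 4 to 12 hr, 2006 and 1795 were left without 12 hr replicates 1 and 2. A stricter rule, calls in the same direction in each of the 4 pairs of a late and an early time, kept 1453 probe sets higher and 1637 lower late.

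**Figure D1:**
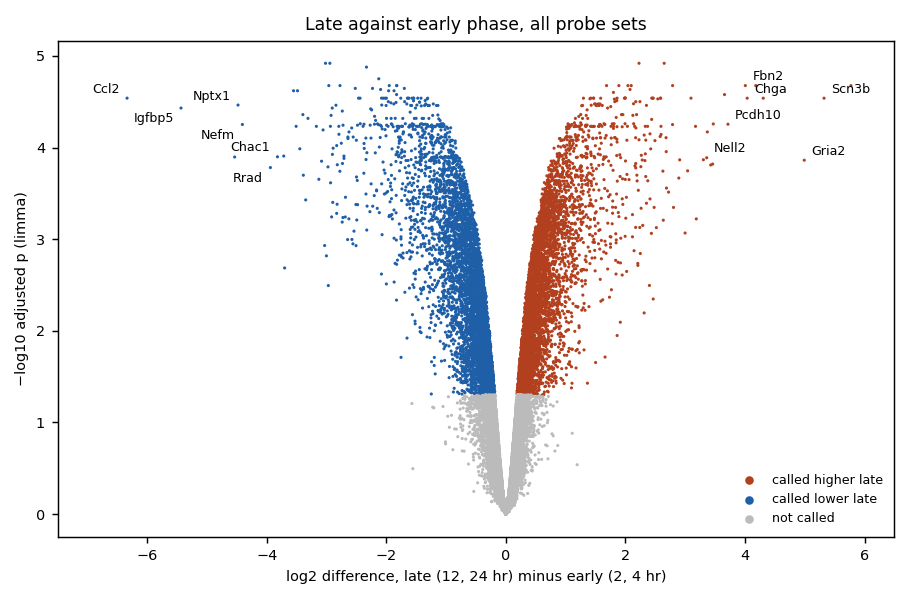
Log2 difference of the late minus the early phase (horizontal axis) against −log10 of the adjusted p from limma (vertical axis) for the 31042 probe sets, with called probe sets in colour (5519 higher, 5464 lower) and the others in grey. The labelled points are the 6 named genes with the largest differences in each direction, from Ccl2 at −6.34 to Scn3b at 5.32.

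Transcripts lower late were led by Ccl2, the chemokine that draws monocytes. Ccl2 read 3770, 4284, 3902 and 6525 early and 72.7, 185, 24.1 and 29.5 late, a difference of −6.34 ± 0.29 (SE, 4 arrays per phase) or 81-fold, with an adjusted p of 2.9e-05 from limma. It was high on every early array, and within the late phase it still fell by 2.12 on the log2 scale from 12 to 24 hr. Igfbp5, which binds insulin-like growth factors, read 4145, 6156, 2002 and 5004 early and 128, 83.6, 71.9 and 94.3 late (−5.44 ± 0.30). Nptx1, a secreted synaptic pentraxin, read 941, 716, 819 and 809 early and 41.8, 34.6, 23.5 and 52.5 late (−4.48 ± 0.24). The neurofilament gene Nefm read 1142, 2368, 2172 and 3380 early and 225, 165, 41.0 and 63.7 late (−4.41 ± 0.27). In none of these did the phases overlap. Rrad and Gem, small GTPases that damp calcium channels, were lower late, at −3.94 and −3.45, and so was Des, the muscle intermediate filament desmin, at −3.49. Desmin read 5892, 7682, 4886 and 7283 early and 720.1, 635, 434 and 512 late. Chac1, which degrades glutathione under stress, read 2275, 3141, 1431 and 4258 early and 181, 168, 178 and 199.9 late (−3.82 ± 0.30). The zinc finger factor Klf5 (−3.72), the keratin Krt15 (−3.70), the selenium carrier Selenop (−3.51), the synaptic immediate early gene Arc (−3.39), the lipid exporter Abca1 (−3.13), the dynein chain Dync1i1 (−3.09), the matrix proteoglycan Ogn (−3.00) and Nxnl2, a thioredoxin-like gene (−3.17), completed the set of large falls together with genes named below. Selenop had 1 of its 2 probe sets called lower, and Igfbp5 had 4 of 5. The early replicates of Krt15 were uneven, at 483, 1331, 249 and 1715, against 51.2, 63.5, 53.7 and 54.7 on the late arrays.

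The largest rise of a named gene was that of Scn3b. This gene, which encodes a beta subunit of voltage-gated sodium channels, read 41.5, 23.5, 43.8 and 25 early and 558, 738, 3232 and 2054 late, a difference of 5.32 ± 0.26 or 40-fold, with an adjusted p of 2.9e-05 from limma. It was near the low end of the array early, was higher on both 12 hr arrays and rose again by 24 hr (log2 difference 2.01 between 12 and 24 hr). Its other probe set, the brighter one, differed by 4.30. Gria2, a subunit of AMPA-type glutamate receptors, read 159, 36.1, 228 and 148 early and 3266, 3503, 4009 and 4325 late (4.99 ± 0.41). Chga, the granule protein chromogranin A, read 35.7, 24.1, 37.2 and 27.5 early and 508, 536, 615 and 382 late (4.04 ± 0.19). Both had reached their late range by 12 hr, as had Fbn2, the microfibril protein fibrillin 2, at 129, 85.6, 176 and 133 early and 1968, 2127, 1973 and 2092 late (4.01 ± 0.15). The protocadherin Pcdh10 read 17.9, 15.5, 24.8 and 13.1 early and 134, 223, 280.1 and 319 late (3.72 ± 0.23). The sodium pump subunit Atp1b1 read 456, 324, 465 and 355 early and 2995, 3638, 5124 and 2884 late (3.17 ± 0.20). Nell2, a secreted protein of neural tissue, differed by 3.36 and Rtn1, a reticulon of the endoplasmic reticulum, by 3.30. Nell2 already differed between 2 and 4 hr, by 2.19. Further large rises were those of the insulin-like growth factor binding protein Igfbp3 (3.19), adenosine deaminase Ada (3.04), the epoxide hydrolase Ephx1 (2.80), the axon guidance protein Ntng1 (2.68), the stress cytokine Gdf15 (2.68), the tight junction claudin Cldn10 (2.63), the collagen Col26a1 (2.60), Ramp2, a partner of the calcitonin receptor-like receptor (2.59), the peptide hormone Apln (2.59), the mitochondrial Mpv17l (2.59) and the ganglioside synthase B4galnt1 (2.58). Gdf15 differed further between 12 and 24 hr, by 1.40.

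**Figure D2:**
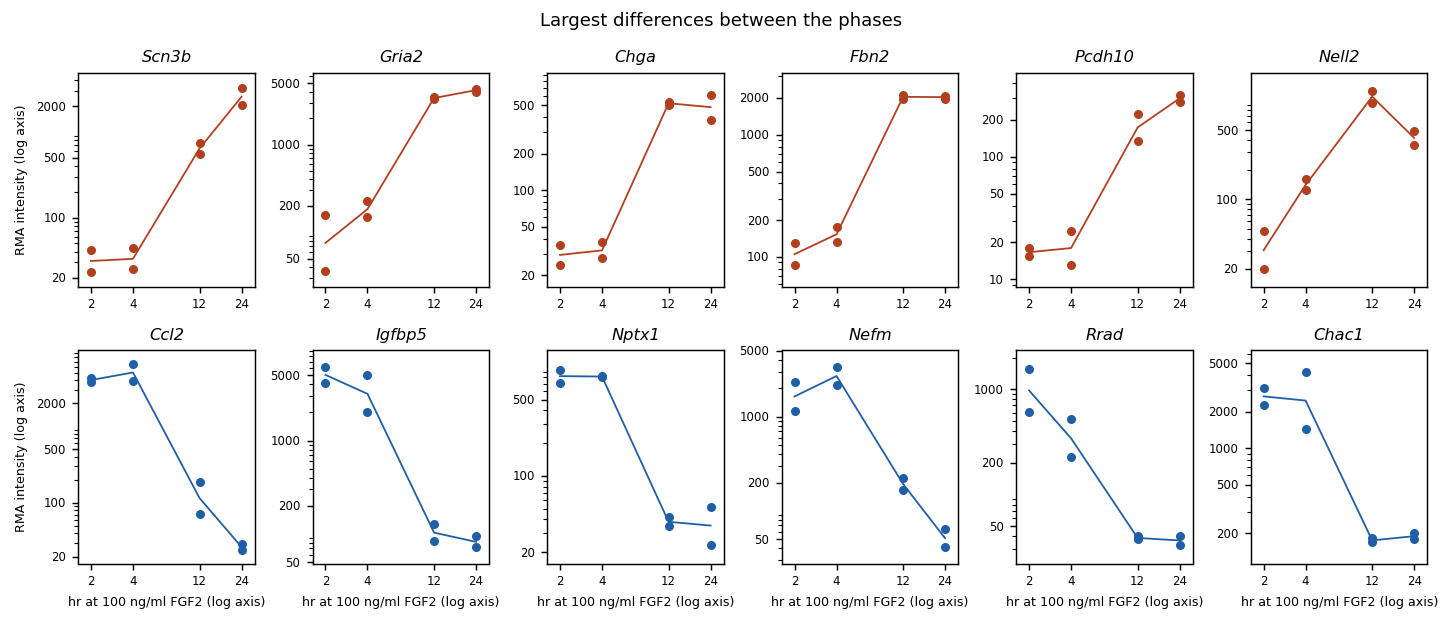
RMA intensity on a log axis (vertical) of the 6 genes with the largest difference in each direction, 1 panel per gene, against hours at 100 ng/ml FGF2 (horizontal, log axis, 2, 4, 12 and 24 hr), with 1 point per array and a line through the geometric mean of each time. The upper row (Scn3b to Nell2) is higher and the lower row (Ccl2 to Chac1) lower on every late array than on every early array.

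Immediate early transcription factors, which FGF switches on within minutes to hours, were mostly lower late. Of 29 measured, 2 were higher and 17 lower late, with a median difference of −0.69 against 0.03 for all genes. Egr2, a zinc finger factor, read 3451, 4639, 1262 and 1996 early and 575, 534, 240 and 359 late (−2.64 ± 0.19, adjusted p = 8e-05 from limma). Ier2 read 2160, 2338, 1925 and 2274 early and 747, 792, 545 and 624 late (−1.70 ± 0.09). The AP-1 factor Fosl1 read 1399, 1801, 1509 and 1720 early and 523, 524, 253 and 470.4 late (−1.91 ± 0.19). In each the phases did not overlap. Fos itself (−1.52), Junb (−1.23), Egr1 (−1.20), the stress factor Atf3 (−1.76) and Myc (−1.59) were lower late, and Myc also fell by 1.64 from 12 to 24 hr. Nab1 and Nab2, corepressors of the Egr factors, fell with them, at −1.0 and −1.42. The list did not move as a block. Jun (0.05), Jund (−0.01), Egr3 (0.02) and Fosl2 (−0.15) were not called, and the nuclear receptor Nr4a2 (0.72) and Klf2 (0.30) were higher late, a count of 1 without 12 hr replicate 1. With the mean of all probe sets of a gene, Jun was higher late by 0.48 and Klf2 (0.09) was not called.

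The promoters of 2 of these genes and of 1 chemokine gene are shown because they hold sites of factors that act downstream of the MAP kinase and NF-kB cascades. The stretches below come from the RefSeq promoters of rat build GRCr8, and capitals mark a CArG box, where serum response factor binds, in the Egr genes, and an NF-kB site, read from the other strand, in Ccl20. Each is printed on the strand of its gene, which is plus for Egr1 and Ccl20 and minus for Egr2.
Egr1 (chr18:26736987-26737012, 83 bases before the gene start): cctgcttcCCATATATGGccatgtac
Egr2 (chr20:21054507-21054532, 83 bases before the gene start): tcctcagtCCATATATGGgcagcgac
Ccl20 (chr9:91837062-91837087, 89 bases before the gene start): tcaatgggGGAAAACCCCgggtgaga
A CArG box was found on either strand in 3 of the 71 promoters of genes at least 4-fold lower late (4.23%), those of Acta1, Dusp5 and Egr2, in 1 of 52 of genes at least 4-fold higher (1.92%) and in 1.35% of 11733 genes on the array. An AP-1 site (TGACTCA or TGAGTCA) was found in 6 of the 71 (8.45%), 1 of the 52 (1.92%) and 3.8% of the 11733, and an NF-kB site in 4 (5.63%), 1 (1.92%) and 4.93%. Egr1 held another CArG box 105 bases before its start. An E-box (CACGTG) was in 9 (12.7%), 4 (7.69%) and 8.92%, and the Maf half-site TGCTGA in 21 (29.6%), 12 (23.1%) and 16.6%. The full cyclic AMP element TGACGTCA was in none of either set and in 2.86% of the 11733. Over all 33469 RefSeq promoters of this length the shares were 1.64% for the CArG box, 4.63% for AP-1, 4.18% for NF-kB, 6.42% for the E-box, 18.4% for the Maf half-site and 1.83% for the cyclic AMP element. Both strands were searched, and a stretch can hold several motifs. Each stretch searched runs from 250 bases before to 50 after the gene start, and a match describes the letters only.

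Of 19 feedback inhibitors of the FGF cascade, 9 were higher and 7 lower late. All 4 Sprouty genes, membrane-bound inhibitors of receptor tyrosine kinase signaling, were higher late. Spry1 read 374, 393, 346 and 311 early and 1108, 1274, 1856 and 1366 late (1.96 ± 0.11, adjusted p = 4.4e-05 from limma). Spry2 read 1281, 1325, 1571 and 1366 early and 3173, 3192, 3510 and 2959 late (1.21 ± 0.08). Neither overlapped between the phases, and Spry4 (0.75) and Spry3 (0.56) differed less. Among the dual-specificity phosphatases, which remove phosphate from MAP kinases, the direction depended on the member. Dusp5 read 626, 901, 315 and 357 early and 168, 164, 81.7 and 66.4 late (−2.18 ± 0.13), falling at each step. Dusp1 (−1.16), Dusp2 (−1.11) and Dusp10 (−0.81) were lower, while Dusp6 (0.48), Dusp8 (0.44) and Dusp14 (0.41) were higher late and Dusp4 was not called (0.14). In a fit with 1 mean for each phase instead of each time, Dusp6, Dusp8, Dusp14 and Dusp10 lost their calls. The list of feedback inhibitors then had 5 higher and 4 lower. Errfi1, an inhibitor of the EGF receptor, read 1634, 1901, 283 and 381 early and 290.3, 324, 207 and 192 late. It fell by 2.43 from 2 to 4 hr, within the early phase, and the phases overlapped.

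Ets factors, the transcription factors that MAP kinases phosphorylate, were divided as well: of 16 measured, 3 were higher and 6 lower late. The PEA3 members Etv4 and Etv5, well-known FGF targets, were higher late. Etv4 read 456, 215, 668 and 575 early and 1454, 1513, 1309 and 1015 late (1.57 ± 0.22), and Etv5 354, 258, 541 and 559.6 early and 925, 919.8, 987 and 884 late (1.19 ± 0.11). Ets1 read 1675, 1993, 1292 and 1488 early and 528, 468, 326 and 383 late (−1.93 ± 0.10). Ets2 read 2442, 3214, 826 and 1230 early and 548, 519, 469.6 and 474 late (−1.74 ± 0.14), and it fell both between 2 and 4 hr and between the phases. Elf1 (−1.0) and Etv6 (−0.89) were lower late and Etv1 was not called (−0.30).

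**Figure D3:**
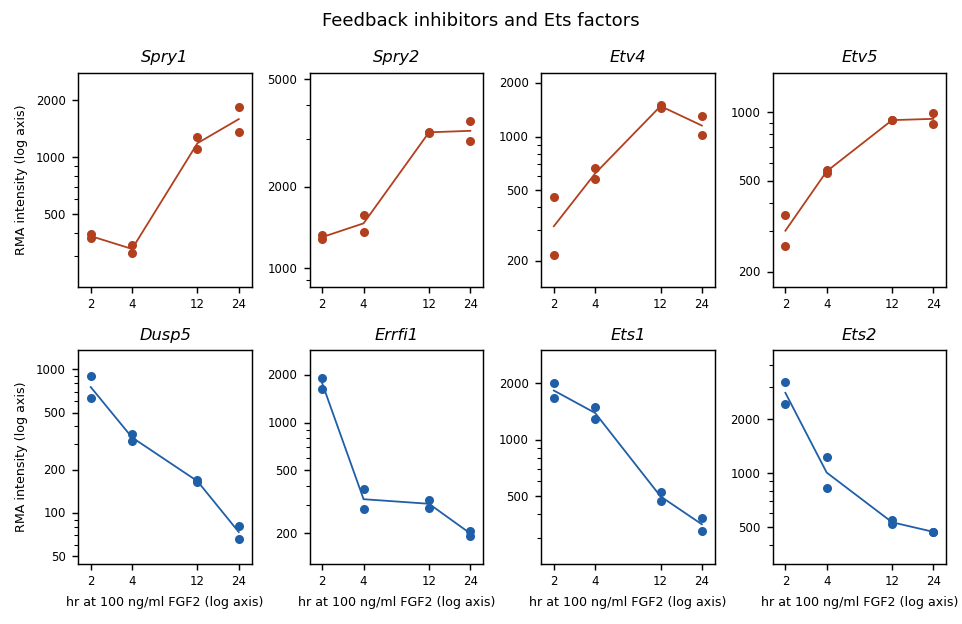
RMA intensity on a log axis (vertical) of 8 feedback and Ets genes, 1 panel each, against hours at 100 ng/ml FGF2 (horizontal, log axis, 2, 4, 12 and 24 hr), with 1 point per array and a line through the geometric means. Spry1, Spry2, Etv4 and Etv5 in the upper row are higher late, by 1.96, 1.21, 1.57 and 1.19 on the log2 scale, and Dusp5, Errfi1, Ets1 and Ets2 in the lower row are lower late, at −2.18, −1.62, −1.93 and −1.74.

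Among 19 FGF ligands, receptors and coreceptors, 5 were higher and 4 lower late. The ligand Fgf9 (1.11) and the receptor Fgfr4 (1.08) were higher, while Fgfr2 (−0.39) and the heparan sulfate coreceptors Gpc1 (−0.90) and Sdc4 (−0.84) were lower. Fgfr2 was not called with the mean of all its probe sets (−0.04). Sdc4 read 11342, 10226, 13204 and 11805 early and 8496, 8779, 4519 and 5270 late. The count of 5 higher was 3 without 12 hr replicate 1 or 24 hr replicate 2. Fgfr1 (−0.15) and Fgfr3 (−0.14) were not called. Of 13 EGF family genes, 1 was higher, the ligand Tgfa (0.71), and 3 lower late, the ligand Hbegf (−1.45) and the receptors Egfr (−1.19) and Erbb2 (−1.12). Egfr read 207, 236, 494 and 912 early and 140.1, 174, 211 and 158 late, with its maximum at 4 hr.

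Of 23 chemokines and cytokines, 0 were higher and 11 lower late, with a median difference of −0.51, and the number higher was 1 without 2 hr replicate 1 or 24 hr replicate 1. Ccl20, which carries the NF-kB site printed above, read 552, 498, 4344 and 4504 early and 222, 338, 113 and 65.0 late (−3.31 ± 0.19). It rose by 3.08 from 2 to 4 hr and fell again by 12 hr. Cxcl1, a neutrophil chemokine, read 897, 703, 2285 and 1992 early and 245, 408, 76.9 and 109 late (−2.94 ± 0.19), with the same course. Ccl7 read 276, 602, 276 and 668 early and 33.0, 60.2, 38.4 and 37.1 late (−3.35 ± 0.35). Cx3cl1 (−1.79), Cxcl3 (−1.40), Cxcl12 (−1.38) and Cxcl2 (−1.37) were also lower late. The cytokines Il1b (−0.02), Tnf (0.03) and Il6 (0.06) were not called, and Il6 read 11.4 to 13.5 on the early arrays, near the low end of the array.

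Genes of the NF-kB pathway, which relays inflammatory signals to the nucleus, were lower late in 14 of 17 cases and higher in 1, Nfkbib (0.31), at a median of −0.62. The number higher was 0 without 12 hr replicate 2 or 24 hr replicate 2. The cell adhesion gene Icam1 read 1085, 1026, 1054 and 934 early and 286, 298, 248 and 287 late (−1.87 ± 0.08). Vcam1 read 265, 301, 399 and 327 early and 50.1, 66.8, 27.3 and 49.2 late (−2.79 ± 0.19). Ptgs2, the inducible prostaglandin synthase, read 918, 1685, 1004 and 1023 early and 223, 352, 55.3 and 143 late (−2.83 ± 0.32). In none of them did the phases overlap. The pathway's own factors moved less, with Relb at −1.24, Nfkb1 at −1.02, Nfkb2 at −0.44 and the inhibitor Nfkbia at −0.36. Interferon-stimulated genes had no common direction, 2 of 19 being higher and 5 lower late. Mx1, an antiviral GTPase, read 1839, 2096, 1513 and 3501 early and 887, 1077, 133 and 35.7 late (−3.03 ± 0.42), and it fell by 3.83 from 12 to 24 hr. Mx2 was lower as well at its brightest probe set (−1.92), though not called with the mean of all its probe sets (−1.74). As Mx1 and Mx2 are close relatives, their probe sets may share signal. Tap1 (0.89) was higher and Ifit1 (−0.04) and Isg15 (0.22) were not called.

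Of 23 secreted proteases and inhibitors, 5 were higher and 7 lower late, counts that came to 3 without 12 hr replicate 2 for the first and 4 without either 12 hr array or 24 hr replicate 2 for the second. The collagenase Mmp13 read 424, 1167, 678 and 921 early and 131, 130.4, 69.4 and 131 late (−2.74 ± 0.33), the urokinase receptor Plaur 578, 714, 407 and 386 early and 106, 105, 68.2 and 91.6 late (−2.47 ± 0.11), and the metalloprotease inhibitor Timp3 3057, 5259, 1145 and 2897 early and 572, 439, 467 and 449.9 late (−2.50 ± 0.30). Membrane-bound Mmp14 (1.13) and the serine protease inhibitor Serpine2 (1.31) were higher late.

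BMPs act through Smad proteins and induce the Id genes, which block differentiation factors of the helix-loop-helix class. Of 23 BMP signaling genes, 10 were higher and 3 lower late, with a median of 0.31. The homeobox target Msx1 read 154, 96.4, 171 and 155 early and 1022, 1034, 1502 and 1324 late (3.10 ± 0.14, adjusted p = 2.9e-05 from limma). Id2 read 149, 254, 326 and 253 early and 877, 775, 1176 and 1608 late (2.17 ± 0.19). Bmp4 read 51.6, 32.5, 50.8 and 36.6 early and 106, 213, 132 and 134 late (1.75 ± 0.24). The phases did not overlap in these, nor in Smad9, a Smad of BMP receptors, at 48.8, 41.5, 68.4 and 40.2 early and 186, 146, 286 and 469 late (2.34 ± 0.21), of whose 2 probe sets only this one was called. Id1 (0.83), Id3 (1.06), Id4 (0.86) and the inhibitory Smad6 (0.80) were higher too. The antagonists went both ways: Nog read 17.0, 16.3, 26.5 and 18.0 early and 71.2, 51.0, 175 and 108 late (2.26 ± 0.19), while Grem1 read 157, 166, 94.2 and 204 early and 32.2, 32.8, 26.3 and 24.8 late (−2.38 ± 0.21) and Chrd was lower (−0.65). The ligand Bmp7 was lower (−0.86) and Bmp2 was not called (−0.08).

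Among TGF-beta and activin genes, 3 of 17 were higher and 9 lower late at a median of −0.45. The activin subunit Inhba (−1.24), the effector Smad3 (−0.88), the repressor Skil (−0.95), the receptor Tgfbr1 (−0.57) and the ligands Tgfb2 (−0.61) and Tgfb3 (−0.71) were lower, and the ligand Tgfb1 (0.66) was higher. Smad3 read 1284, 1512, 1705 and 1952 early and 869, 824, 814 and 975 late, and Skil 4109, 4619, 3533 and 3733 early and 2023, 2193, 1830 and 2240 late. Neither overlapped between the phases.

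In the Notch pathway, which relays signals between neighbouring cells, 5 of 21 genes were higher and 3 lower late, the former count being 9 without 2 hr replicate 1. Jag1, the ligand of lens fibers, read 1442, 855, 2365 and 994 early and 4092, 4292, 5522 and 4849 late (1.84 ± 0.27). The target Hey1 read 1421, 742, 1593 and 600.4 early and 3287, 3604, 4139 and 4519 late (1.95 ± 0.31). Hes5 (1.56) and Hes6 (1.06) were higher as well. Jag1 and Hey1 were uneven within the early phase, each reading higher on both first replicates than on the second. The glycosyltransferase Mfng (−1.08) and the nuclear effector Rbpj (−0.36) were lower, and Notch1 (0.24), Notch2 (0.18) and Hes1 (−0.12) were not called. Wnt pathway genes were lower late in 14 of 27 cases and higher in 3, at a median of −0.27, the number higher being 5 without 4 hr replicate 2. The ligand Wnt7a was the exception of size, at 115, 74.3, 93.5 and 60.9 early and 223, 221, 644 and 409 late (2.02 ± 0.21). The nuclear effector Tcf7l2 read 1014, 1075, 922 and 1565 early and 336, 299, 406 and 309 late (−1.74 ± 0.17), and the receptor Fzd6 (−0.95), the ligand Wnt2 (−1.43), Lef1 (−0.46) and beta-catenin Ctnnb1 (−0.34) were lower late. With the mean of all probe sets of a gene, neither Lef1 (−0.32) nor Ctnnb1 (−0.12) was called.

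**Figure D4:**
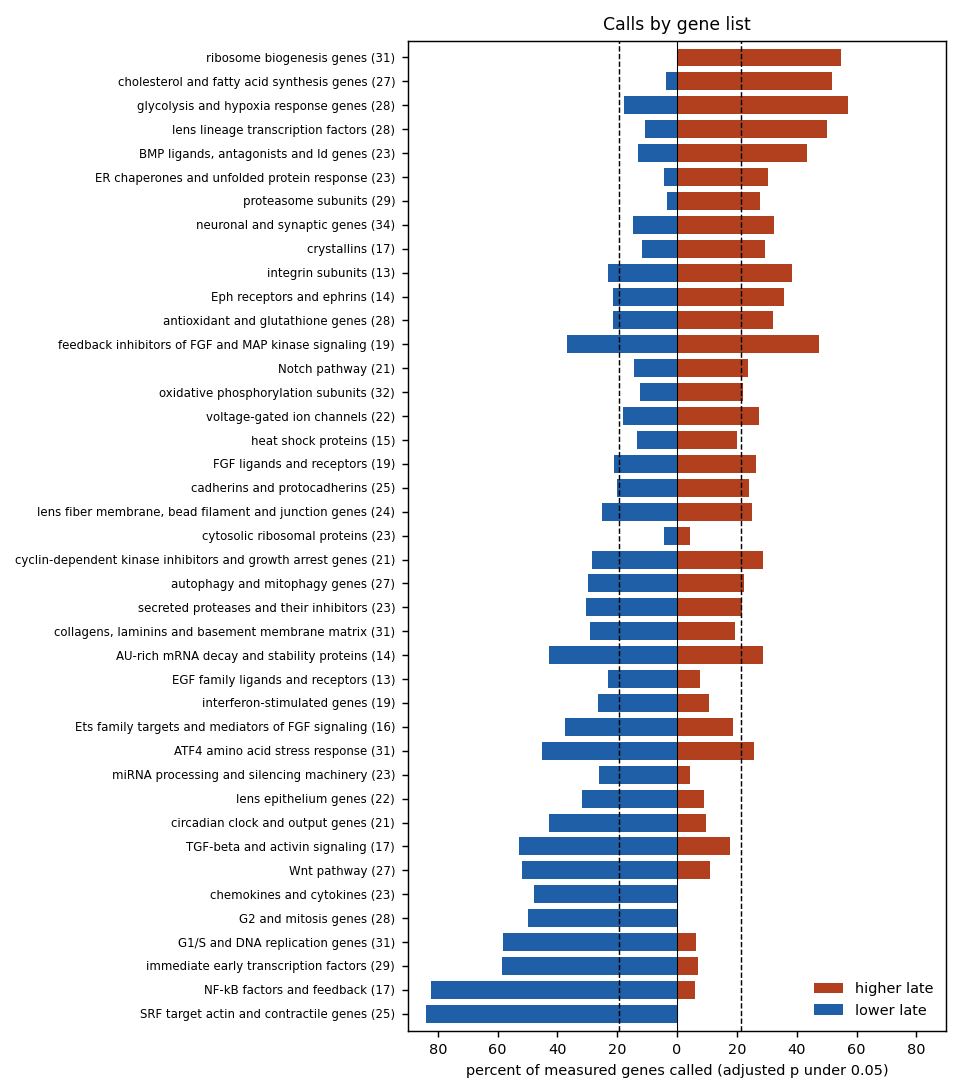
Percent of the measured genes of each of 41 lists (vertical axis) called higher late (bars to the right) and lower late (bars to the left) at an adjusted p under 0.05, with the number measured after the name. The dashed lines mark the shares over all 14217 genes, 21.2% higher and 19.3% lower; ribosome biogenesis genes have no member lower late, and chemokines, G2 and mitosis genes and SRF targets have none higher late.

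Of 28 lens transcription factors, 14 were higher and 3 lower late, at a median of 0.38. Mycn read 594, 628, 1536 and 1483 early and 2544, 2576, 2870 and 2642 late (1.47 ± 0.07), with part of its rise between 2 and 4 hr. Gata3, which lens fibers need to leave the cell cycle, read 253, 359, 477 and 387 early and 848, 976, 991 and 909 late (1.37 ± 0.13). Pitx3, needed for lens development, read 349, 287, 351 and 284 early and 807, 705, 795 and 708 late, 2.38-fold higher late. Nfia (1.36), Sall1 (1.17), Maf, the crystallin activator c-Maf (0.63), and Prox1 (0.42) were higher as well. Nfia had 1 of 3 probe sets called. Pax6 (−0.01), Foxe3 (−0.14) and Hsf4 (−0.03) were not called. Sox2 was not called at its brightest probe set (−0.08), although the mean of its probe sets was higher late by 0.66. Nfat5, which responds to osmotic stress, was lower (−0.82).

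Crystallins are the main proteins of the lens, and the list of them was written with Cryz, Cryl1 and Crym as well. Of its 17 measured genes, 5 were higher and 2 lower late (41.2% called, against 40.5% of all genes), with a median of 0.01. The phases did not overlap in 2 of them, Crygs and Cryab, of which Cryab was not called (−0.17). Those higher were 3 without 12 hr replicate 1, and those lower 1 without either 2 hr array, 4 hr replicate 2, 12 hr replicate 2 or 24 hr replicate 2 and 4 without 4 hr replicate 1. Cryaa was not called (0.01). On every array it read above the brightest array control, whose maximum was 15699 on 12 hr replicate 1. Whether a rise could still register at that level was not tested. Crybb1 read 690, 1204, 754 and 1523 early and 2072, 1303, 3185 and 2144 late (1.07 ± 0.29), and Crygn 886, 1731, 1294 and 1875 early and 1881, 1524, 4174 and 4306 late (0.95 ± 0.22), with its highest values at 24 hr. Crygs read 853, 1870, 793 and 1420 early and 196, 104, 209 and 245 late (−2.69 ± 0.31). The gamma crystallins are near-identical in part, so signal may be shared among Crygd (−0.40), Cryga, Crygb and Crygc, of which the last 3 were not called. Genes of fiber membrane, filaments and junctions were 6 higher and 6 lower of 24. The adhesion protein Nrcam read 189.6, 149, 231 and 151 early and 228, 207, 898 and 803 late (1.28 ± 0.15) and rose only after 12 hr, by 1.96. The receptor Epha2 (0.66), the RNA-binding Caprin2 (0.76) and the bead filament gene Bfsp1 (0.37) were higher, the gap junction gene Gja1 (−0.83) and the nuclease Dnase2b, which clears fiber nuclei (−0.90), were lower, and Mip (0.16) and Bfsp2 (−0.01) were not called.

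Among 22 genes of the lens epithelium, 2 were higher and 7 lower late, and those higher were 1 without 12 hr replicate 1 or 24 hr replicate 1. E-cadherin, Cdh1, read 10782, 11666, 10730 and 11175 early and 8009, 8075, 6003 and 6520 late (−0.64 ± 0.07), and the copper carrier ceruloplasmin, Cp, was lower by 3.06 at the probe set with the larger change and by 1.78 at its brightest. Igfbp5, given above, was also in this list. Slc39a8, a zinc and manganese importer, was higher (2.33), and so was the prostaglandin synthase Ptgds (0.96).

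Of 31 genes of G1/S and DNA replication, 2 were higher and 18 lower late, at a median of −0.56, and of 28 genes of G2 and mitosis 0 were higher and 14 lower, at −0.48. The G2 and mitosis genes lower late were 8 without 12 hr replicate 2, and the replication genes higher late 1 without 2 hr replicate 2, 4 hr replicate 2, either 12 hr array or 24 hr replicate 2. Cdk2, the kinase of S phase entry, read 915, 650.2, 791 and 612 early and 374, 414, 294 and 251 late (−1.16 ± 0.14). The replication helicase subunit Mcm5 read 668, 558, 662 and 458 early and 344, 313, 253 and 282 late (−0.97 ± 0.13), and all 6 subunits Mcm2 to Mcm7 were lower, at −0.97 to −0.56. Mki67, a marker of cycling cells, read 1621, 1536, 1951 and 1209 early and 805, 772, 735 and 1146 late (−0.87 ± 0.18), and Ccna2 568, 653, 916 and 468 early and 300.4, 282, 259 and 378 late (−1.06 ± 0.21). The phases did not overlap in these 4. The G1 cyclin Ccnd1 (0.50) and its kinase Cdk4 (0.40) were the members higher late, and Cdk1 (−0.31), Pcna (−0.30) and E2f1 (0.14) were not called. In tissue RNA, fewer cycling cells and less of these transcripts per cell cannot be told apart.

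Growth arrest genes had members in both directions, 6 of 21 higher and 6 lower late. Cdkn1a, which encodes the inhibitor p21, read 876, 808, 805 and 512 early and 1704, 1551, 1677 and 2204 late (1.27 ± 0.15). Ccng1 read 2330, 2257, 2821 and 1918 early and 5574, 5222, 6322 and 8071 late (1.43 ± 0.13). Tob1, an antiproliferative factor, was higher (1.05), as was Rbl2, a relative of the retinoblastoma protein (0.76). Gadd45b read 1147, 1686, 739 and 856 early and 322, 381, 260.5 and 270.3 late (−1.79 ± 0.13), and Gadd45a (−0.88) and Cdkn2c (−0.69) were lower. The fiber cell inhibitors Cdkn1b (0.14) and Cdkn1c (0.10) were not called at their brightest probe sets. With the mean of all probe sets of a gene, Cdkn1b was higher late (0.60), while Cdkn2c (−0.20) was not called. Of 31 ribosome biogenesis genes, 17 were higher and 0 lower late, at a median of 0.25. The RNA polymerase I subunit Polr1b read 222, 209, 256 and 205 early and 385, 463, 442 and 401 late (0.93 ± 0.10), and Nop16 1709, 1599, 1658 and 1408 early and 2708, 2555, 2948 and 2956 late (0.81 ± 0.08). Of 23 ribosomal protein genes, 1 was higher, Rpl4 (0.22), and 1 lower, Rps13 (−0.47), the number higher being 0 without 2 hr replicate 1, 4 hr replicate 2, either 12 hr array or either 24 hr array and 2 without 4 hr replicate 1. In 12 of the 23, every late array read above every early array, as in 16.2% of all probe sets, and the median difference was 0.11. The calls of these small differences hung on the test, with 14 higher under the trended and robust variance prior. An ordinary analysis of variance of late against early called 16 higher unadjusted and 10 after Benjamini-Hochberg.

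**Figure D5:**
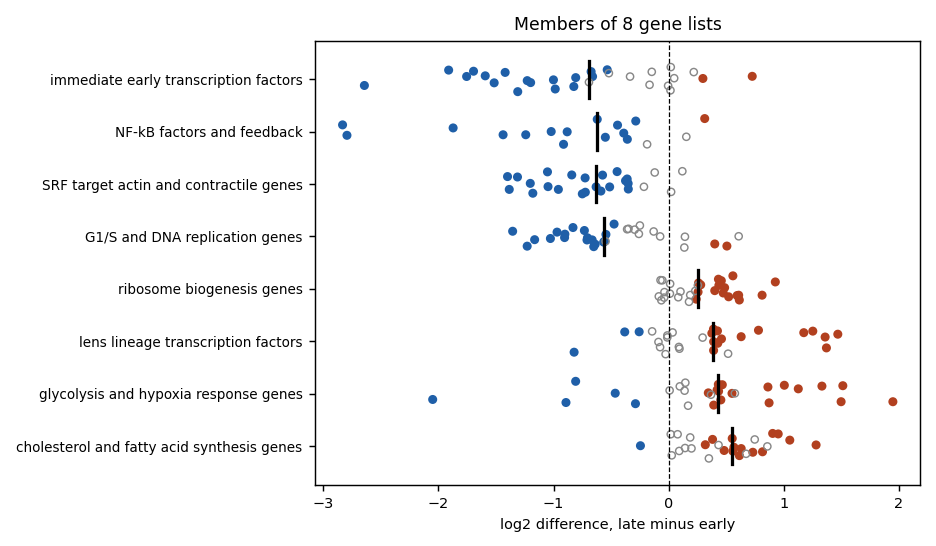
Log2 difference of the late minus the early phase (horizontal axis) of every measured member of 8 lists (rows), 1 point per gene, filled where the gene was called and hollow where it was not, with a bar at the list's median and a dashed line at 0. The medians run from −0.69 for immediate early factors to 0.55 for cholesterol and fatty acid synthesis genes.

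Stress genes of the ATF4 pathway, which answers amino acid shortage, were called in 71.0% of 31 cases, 8 higher and 14 lower late, the number higher being 5 without either 12 hr array or 24 hr replicate 1. Atf4 itself read 5154, 5568, 5026 and 7392 early and 2020, 2286, 1964 and 1934 late (−1.48 ± 0.12). Its targets Ddit3, which encodes the death factor CHOP, read 689, 1049, 512 and 1171 early and 154, 139.7, 169 and 189.9 late (−2.32 ± 0.25), and the pseudokinase Trib3 220.5, 215, 319 and 955 early and 64.6, 64.0, 76.2 and 71.9 late (−2.33 ± 0.29). The amino acid carriers split, with Slc7a1 (−1.69) and Slc7a11 (−1.12) lower and Slc1a4 (0.79), Slc1a5 (0.63) and Slc7a5 (0.48) higher. With 1 mean for each phase, Slc1a4, Slc1a5 and Slc7a5 lost their calls, and 2 genes of the ATF4 list were higher late. Asparagine synthetase Asns was not called (0.24). Chaperones of the endoplasmic reticulum were 7 higher and 1 lower of 23, the latter being Herpud1 (−1.95), while Hspa5 (−0.19) and Xbp1 (−0.08) were not called. The 7 came to 2 without 2 hr replicate 2, 4 hr replicate 2, either 12 hr array or either 24 hr array. Heat shock genes were 3 higher and 2 lower of 15, with the cochaperone Bag3 at −1.14, and those higher were 1 without 2 hr replicate 2, 4 hr replicate 2, either 12 hr array or 24 hr replicate 1. Of 28 antioxidant genes, 9 were higher and 6 lower, the former 5 without 12 hr replicate 2. Srxn1, which restores peroxiredoxins, read 2026, 4586, 781 and 1680 early and 311, 394, 191 and 270.4 late (−2.73 ± 0.32), and the heme oxygenase Hmox1 1339, 1695, 1490 and 2076 early and 873, 1128, 335 and 391 late (−1.44 ± 0.14). The glutathione synthesis subunit Gclm (0.90), Gstp1 (0.64) and Prdx3 (0.61) were higher, and catalase Cat (0.00) and Nqo1 (0.42) were not called.

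Genes of glycolysis and the response to low oxygen were higher late in 16 of 28 cases and lower in 5, at a median of 0.42. Car9, a carbonic anhydrase induced by low oxygen, read 127, 153, 138 and 153 early and 317, 454, 542 and 348 late (1.51 ± 0.17). The oxygen sensor Egln3 read 123, 171, 148 and 94.6 early and 379, 476, 385 and 268 late (1.5 ± 0.19), and the lactate exporter Slc16a3 492, 900.4, 502 and 782 early and 1558, 1931, 1713 and 1347 late (1.33 ± 0.22). None of these overlapped between the phases. Ankrd37 (1.95), Pfkl (1.12) and Bnip3 (0.86) were higher, Vegfa (0.17) and Ldha (0.10) were not called, and Hif1a was lower (−0.47). The glucose transporters went opposite ways, Slc2a1 higher (0.46) and Slc2a3 lower, at 2417, 2443, 1884 and 2318 early and 739, 906, 382 and 343 late (−2.05 ± 0.10). Cholesterol and fatty acid synthesis genes were higher late in 14 of 27 cases and lower in 1, at a median of 0.55. Those higher numbered 7 without 2 hr replicate 2, 12 hr replicate 1 or 24 hr replicate 2 and 6 without 12 hr replicate 2 or 24 hr replicate 1, and those lower 0 without either 12 hr array or 24 hr replicate 2. Fads1, a fatty acid desaturase, read 908, 548, 806 and 429 early and 1730, 1802, 1367 and 1400 late (1.28 ± 0.22), and Dhcr7, the last enzyme of cholesterol synthesis, 693, 476, 556 and 271 early and 888, 822, 1081 and 1162 late (1.05 ± 0.22). On the early arrays both were lower in the second replicate of each time. The master factors Srebf1 (0.02) and Srebf2 (0.09) were not called. Subunits of oxidative phosphorylation were 7 higher and 4 lower of 32, and proteasome subunits 8 and 1 of 29, led by Psmb7 (0.88). For oxidative phosphorylation the calls higher were 4 without 2 hr replicate 2 or 12 hr replicate 1 and 3 without 12 hr replicate 2 or either 24 hr array, and those lower 2 without 2 hr replicate 1, either 12 hr array or either 24 hr array. Proteasome calls higher late were 2 without 2 hr replicate 2 or 4 hr replicate 2, 1 without either 12 hr array or 24 hr replicate 2 and 4 without 24 hr replicate 1, and those lower 0 without either 4 hr array, either 12 hr array or either 24 hr array. With the Actb ratio as covariate 1 proteasome gene was higher. Of 27 autophagy genes, 6 were higher and 8 lower, among the latter the receptor Optn (−1.52), the cargo adaptor Sqstm1 (−0.90) and the lysosomal factor Tfeb (−0.91). The autophagy genes higher late were 3 without 2 hr replicate 1 or 24 hr replicate 2 and 2 without either 12 hr array or 24 hr replicate 1.

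Neuronal and synaptic genes, of which Gria2, Chga, Nptx1 and Nefm are described above, were 11 higher and 5 lower of 34. The intermediate filaments of neurons differed in direction, with Nefl (−2.64) lower and Ina (1.58) and Nefh (0.72) higher late. Syn1, which tethers synaptic vesicles, was higher (1.11), and the related receptor subunits Gria1 (0.03), Gria3 (0.19) and Gria4 (−0.01) were not called. Of 22 voltage-gated channel genes, 6 were higher and 4 lower. The potassium channel Kcnd3 read 42.0, 51.1, 336 and 319.6 early and 49.7, 46.7, 50.4 and 51.7 late, high on the 4 hr arrays alone, with a rise of 2.82 from 2 to 4 hr at 1 of its 3 probe sets. Of 25 cadherins and catenins, 6 were higher and 5 lower, the former 3 without 12 hr replicate 2 or 24 hr replicate 1. Cdhr1, a cadherin of photoreceptors, read 184, 170.3, 167 and 144 early and 31.2, 26.6, 15.8 and 16.2 late (−2.95 ± 0.09), P-cadherin Cdh3 was lower (−1.84), and Pcdh17 (2.28) and N-cadherin Cdh2 (0.28) were higher.

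Contractile and cytoskeletal genes that serum response factor controls were lower late in 21 of 25 cases and higher in 0, at a median of −0.63. Vinculin, Vcl, read 4650, 4908, 4482 and 5409 early and 1794, 1944, 1570 and 2081 late (−1.40 ± 0.11, adjusted p = 0.00012 from limma). Transgelin, Tagln, read 4753, 3038, 4846 and 4441 early and 1842, 2136, 1021 and 1662 late (−1.39 ± 0.19). Tropomyosin Tpm1 read 1116, 2062, 1041 and 1539 early and 567, 640.1, 519 and 512 late (−1.31 ± 0.20), and its 7 probe sets were all lower. Serum response factor itself, Srf, was lower (−0.66). Among 31 genes of collagens and basement membrane, 6 were higher and 9 lower, with Nid2 (1.38) and Col18a1 (1.00) higher beside Fbn2 and Col9a1 (−1.09) and Col5a1 (−0.93) lower. Integrin subunits were 5 higher and 3 lower of 13, the former 3 without 2 hr replicate 2, 12 hr replicate 2 or 24 hr replicate 1. The laminin receptor Itga6 read 1329, 985, 1996 and 1354 early and 2597, 3071, 3417 and 3364 late (1.17 ± 0.15), and Itga7 was lower (−0.96). Eph receptors and ephrins were 5 higher and 3 lower of 14, with Epha5 at 1.29 and Epha4 at −1.87.

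Among genes of miRNA processing and silencing, 1 of 23 was higher, the nuclear exporter Xpo5 (0.37), and 6 lower, the former 2 without 2 hr replicate 2 or 4 hr replicate 2 and 3 without 4 hr replicate 1. Dicer1, which cuts miRNA precursors, read 440.1, 373, 397 and 337 early and 282, 313, 250.5 and 239 late (−0.51 ± 0.09) with 1 of its 2 probe sets called, and Drosha (0.06) and Ago1 (0.03) were not called. Of 14 proteins that bind AU-rich elements and set the decay of short-lived mRNAs, 4 were higher and 6 lower. Zfp36l2 read 5434, 6209, 3256 and 4102 early and 1740, 1682, 798 and 753 late (−2.0 ± 0.09), and Zfp36 (−0.90) and Zfp36l1 (−0.83) were lower as well. Circadian genes were 2 higher and 9 lower of 21. Those lower were 3 with 1 mean for each phase and 0 in all 4 pairs of a late and an early time. Npas2 read 40.4, 39.4, 333 and 357 early and 140.2, 128, 40.8 and 38.1 late, with its peak at 4 hr. Bmal1, its partner, read 159.9, 286, 202 and 358 early and 131, 127, 52.7 and 49.7 late (−1.56 ± 0.22), and Per2 855, 898, 356 and 579 early and 201, 164, 644 and 544 late (−0.94 ± 0.16), lowest at 12 hr. In Npas2 and Per2 the phases overlapped. The output factor Dbp (1.05) and the repressor Nr1d1 (0.86) were higher.

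Markers of other cell types that explants could hold were summed per array. Red blood cell markers summed to 2170 to 3759 on the early and 1462 to 1693 on the late arrays, vascular markers to 1439 to 2012 and 1100 to 1392, and fibroblast markers to 2501 to 3318 and 1784 to 2463. These 3 sums did not overlap between the phases, though narrowly for the vascular and fibroblast markers. A sum leans on its brightest genes, such as Hbb and Tek below. The median differences of the lists were −0.09 for red blood cell, −0.21 for vascular and −0.48 for fibroblast markers. The sums moved in the direction of the chemokine, matrix and contractile genes that were lower late. Their part in those results was not tested. Of 5 red blood cell markers 2 were lower (1 without either 2 hr array, 4 hr replicate 2, either 12 hr array or either 24 hr array), among them Hbb at 3502, 1918, 2320 and 2165 early and 1453, 1322, 1221 and 1404 late. Of 9 vascular markers 1 was higher, Kdr (1.05), and 2 lower, Flt1 (−0.81) and Tek, at 1082, 1435, 723 and 879.6 early and 296, 298, 335 and 285 late, while the defining marker Pecam1 read 20.5, 17.4, 20.1 and 17.2 early and 19.9, 18.9, 20.9 and 17.8 late, at the low end of the array. Vascular calls higher were 2 without 2 hr replicate 1 and 0 without 2 hr replicate 2, 12 hr replicate 1 or 24 hr replicate 2, and those lower 1 without 2 hr replicate 1, 4 hr replicate 1, either 12 hr array or either 24 hr array. Of 10 fibroblast markers 2 were lower, Col3a1 (−0.79) and Pdgfrb (−0.60), and the number came to 4 without 4 hr replicate 1, 5 without 4 hr replicate 2 and 1 without 12 hr replicate 2 or either 24 hr array. Macrophage markers summed to 482 to 745 early and 549 to 659 late, pigmented epithelium markers to 363 to 377 and 336 to 416, and retinal markers to 202 to 214 and 209 to 221. Of these 3 lists, with 12, 9 and 8 genes, only Mitf (0.41) of the pigmented list was called. Macrophage calls higher were 1 without 2 hr replicate 1, and those lower 3 without 2 hr replicate 2 and 2 without 4 hr replicate 2. Of the genes that define the lens, Cryaa read 22515, 24806, 25148 and 24207 early and 24632, 23346, 24954 and 24383 late, and Pax6 read 8397, 8219, 7127 and 6999 early and 7654, 7904, 7720 and 7117 late, both well above the low end of the array.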

How the data were processed

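Total RNA of rat lens explants (50 ng an array) was amplified with the NuGEN Ovation system and hybridised to Affymetrix arrays, per the labels. The array names point to the Rat 230 2.0 design, while the methods give another array name. The deposited values are intensities on a linear scale that the authors made by RMA, which corrects background, brings all arrays to one distribution and summarises the probes of a probe set. The version of RMA and its settings are not given in the sources used here. Quantile scaling of this kind removes any change in total RNA shared by all genes. The signal of a dim probe set is compressed by RMA toward the low end of the array, so that its difference is understated.

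Of 31099 probe sets, 57 array controls were left out. Values were taken to log2 and fitted with limma 3.58.1 in R 4.3.3, with 1 mean for each time over the 8 arrays, and the contrasts were tested with eBayes and Benjamini-Hochberg adjustment at 0.05. The samples and the time means follow the hours in the labels. The fit was tested on simulated data first. GEO's platform annotation gave 1 gene symbol to 20826 probe sets, several to 436 and none to 9780, and genes were named only from the first kind. A list is described by the brightest probe set of each gene. Named outside the lists are the 20 called genes with the largest difference in each direction whose phases did not overlap; within a list, up to 4 called members with the largest differences, with members that were not called or went the other way. Further members were named after their values were seen. The members, gene lists and tests were chosen with earlier results of these data known. Only 2 arrays at each time limit the precision. The replicates come from separate cultures, and their numbers were not taken to pair them. Promoter sequences and their coordinates are from RefSeq on rat build GRCr8. Figures were drawn with matplotlib 3.10.9 in Python 3.11.15. Alternatives covered the arrays used, scaling, filter, error model, fold minimum, the mean of all probe sets of a gene and an ordinary analysis of variance of late against early. The comparison values in the study's supplements were not used.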

Additional observations from a re-analysis of the deposited data

Results flagged for a closer look

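In 16 of 574 groups of 4 arrays (the phases of the genes named above), 1 array stood apart from the other 3 by Dixon's test. Among 4 arrays of 1 kind, chance alone does this in about 1 group in 20, more often than was found here. Each group holds 2 times, so that rate need not apply. All values are RMA intensities. Among signaling genes, Fosl1 read 253.3 on 24 hr replicate 1 against 470.4 to 524.5 on the other late arrays, Dusp2 read 420.1 on 4 hr replicate 2 against 529.1 to 553.1 on the other early arrays, and Tgfa read 207.9 on 4 hr replicate 1 against 148.6 to 157.3. Il6 read 11.4 on 4 hr replicate 2 against 13.3 to 13.5. Mmp13 read 69.4 on 24 hr replicate 1 against 130.4 to 131.2.

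Among lens genes, Prox1 read 6420 on 4 hr replicate 2 against 5672.9 to 5752.9, and Crygd read 8169.6 on the same array against 6466.3 to 6591.1. Crygb read 302.8 on 12 hr replicate 1 against 48.3 to 58.6 on the other late arrays. Cryab read 19206.5 on 2 hr replicate 1 against 20852.9 to 21085.3. Gja1 read 4967.6 on 12 hr replicate 2 against 4390 to 4455.6, and Epha2 read 3928 on 24 hr replicate 1 against 3295 to 3382.9.

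Among the remaining genes, Cdkn1a read 512 on 4 hr replicate 2 against 804.8 to 875.9. Pfkl read 998 on 24 hr replicate 1 against 785.2 to 800.1. Gria4 read 35.1 on 2 hr replicate 2 against 32.3 to 32.6, and Gria3 read 22.5 on 24 hr replicate 2 against 20.6 to 20.8. Col3a1 read 41.2 on 4 hr replicate 1 against 80.9 to 89.8. In this set 4 hr replicate 2 appears 5 times and 24 hr replicate 1 appears 4 times.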

How the results depend on the processing

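The difference between the phases was called in 10983 probe sets, and in 10155 to 12164 with the arrays from before the higher dose in the fit, the replicate block, another variance prior, array weights, quantile scaling, median centring, the dimmest probe sets left out or the Actb 5' to 3' ratio as covariate. Another scaling moved the median of all differences from 0.027 to 0.019 (quantile) or 0.024 (centring). Deviations of same-numbered replicates correlated between 2 and 4 hr (r = 0.33) and not between the other times (r of −0.15 to −0.003). A replicate effect shared by the early arrays is therefore possible, and the main fit did not pair the samples. With the replicate block 10589 were called, of which 5271 were higher and 5318 lower. A minimum of 2-fold left 1586 (679 higher, 907 lower) and calls in all 4 pairs of times 3090 (1453 and 1637). An ordinary analysis of variance of late against early called 7015 (3611 and 3404) after Benjamini-Hochberg, against 11696 (6206 and 5490) unadjusted. The authors' own analysis of variance of the time course was not rerun. The steps within a phase were less stable. From 2 to 4 hr, 694 became 1159 with the arrays from before the higher dose, 324 with array weights and 4644 at an unadjusted p, and from 12 to 24 hr, 794 became 1348, 2419 and 4896. From 4 to 12 hr, 5919 became 10126 at an unadjusted p. Without 1 array, in turn, 7735 to 10855 differed between the phases (3725 to 5482 higher, 4001 to 5458 lower), 159 to 938 from 2 to 4 hr, 16 to 965 from 12 to 24 hr and 1795 to 6366 from 4 to 12 hr, and 5655 to 6359 lay above and 5061 to 5667 below without overlap, a count that fewer arrays make easier to reach. A time left with 1 array was assumed to vary like the other times. Of the 287 probe sets named, 239 were called. The sign of 1 reversed, Sox2, from −0.08 to 0.66 with the mean of all its probe sets. With that mean 7 named genes lost their call, among them Klf2, Mx2, Fgfr2, Lef1, Ctnnb1 and Cdkn2c. Another 4, Jun, Cdkn1b, Isg15 and Cryab, gained one. Among the 287 probe sets the replicate block ended the call of Dusp6, and quantile scaling, centring and array weights ended none. The replicate block also moved list counts by more than 1.5 times, to 2 from 4 oxidative phosphorylation genes lower, to 5 from 8 proteasome genes higher and 0 from 1 lower, and among markers lower late to 4 from 2 for fibroblasts, 1 from 2 for red blood cells and 1 from 0 for macrophages. Without single arrays 6 to 18 of these calls were lost, most often those of Dusp6, Flt1, Rpl4, Nfkb2, Atf3, Col3a1, Ccnd1, Crygd, Nfkbia and Lef1. With 1 mean per phase 25 were lost, among them Errfi1, Egfr, Kcnd3, Npas2 and Nrcam, whose values differed within a phase. That fit moved list counts by more than 1.5 times as well, among them those of feedback inhibitors, crystallins, ATF4 genes and circadian genes. The cause of the other changes was not tested.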
